A study of Mus musculus with 12 samples.

Results

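The T-box transcription factors examined here are 10 genes chosen by symbol, Tbx1, Tbx2, Tbx3, Tbx4, Tbx5, Tbx15, Tbx18, Tbx20, Eomes and Tbr1, out of 55536 annotated genes. Each of the 10 symbols matched 1 gene. The annotation holds 17 genes of the T-box family, and the other 7 (Tbx6, Tbx10, Tbx19, Tbx21, Tbx22, T and Mga) are given where they bear on the 10. The genes were measured by bulk RNA-seq in primary cultures of mouse oligodendrocyte precursor cells (OPCs), the glial progenitors that give rise to myelinating oligodendrocytes. The study asked whether inhibition of EZH2 releases gene repression in OPCs and alters their response to interferon gamma (IFN-γ). The 12 libraries fall into 4 groups of 3 replicates. The control group (Ctr) received neither agent, and no vehicle is named for it. The EZH2i group received EPZ011989, a small molecule inhibitor of EZH2, for 4 days at 1.5 μM, renewed each 48 h. The IFN-γ group received 100 ng/ml IFN-γ for 6 h without the inhibitor, and the IFN-γ + EZH2i group received the 4 days of inhibitor with IFN-γ added for the last 6 h.

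The OPCs of every group came from brains of Sox10-Cre, RCE:loxP-EGFP pups on a mixed C57BL/6 and CD1 background at postnatal days 4 to 6, of both sexes, and were expanded with PDGFaa and bFGF. They had been selected either by sorting for the Sox10 reporter or with magnetic beads against CD140a, the receptor encoded by Pdgfra. The share of cells outside the oligodendrocyte lineage that remained is not given in the sources used here. Several brains were pooled for each culture and the 3 replicates came from different litters. Sox10 drives the reporter in the whole oligodendrocyte lineage, so the reporter does not separate precursors from later stages. The sample labels also carry the mouse model name EAE, while the protocols describe pup cultures and no immunization. Total counts per library lay between 17403893 (Ctr replicate 2) and 66546052 (IFN-γ replicate 3), a 3.82-fold range. All 7 OPC markers examined (Pdgfra, Cspg4, Sox10, Olig1, Olig2, Ptprz1 and Gpr17) passed the filter on low counts, and their summed level in CPM (a gene's counts divided by the library total, scaled as usual) was 8111 to 8375 in Ctr, 6700 to 7100 in EZH2i, 5292 to 7130 in IFN-γ and 4304 to 5199 in IFN-γ + EZH2i. Irf1, an IFN-γ target used to check the labels, averaged 12 ± 0.41 CPM in Ctr and 10.2 ± 0.345 CPM in EZH2i, and 951 ± 116 and 993 ± 133 CPM in the groups with IFN-γ (SD, n = 3).

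T-box factors bind DNA through a shared domain that recognizes the sequence GGTGTGA, and they specify mesoderm, heart, limb, pharyngeal and cortical cell fates. Tbx2 and Tbx3 act mainly as repressors, Tbx4 and Tbx5 as limb and heart activators, and Eomes and Tbr1 mark successive stages of glutamatergic neuron production in the cortex. EZH2 is the catalytic subunit of Polycomb repressive complex 2 (PRC2), which deposits the repressive mark H3K27me3, typically over CpG-rich start sites of developmental transcription factor genes that a given cell type does not use. Oligodendroglia are not known for expression of these genes, apart from Mga, a broadly expressed family member that also pairs with Max.

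Start site sequences were taken from RefSeq (build GRCm38.p6), 250 bases before and 50 bases after the start, and 6 of the 10 genes had an entry (Tbx1, Tbx4, Tbx18, Tbx20, Eomes and Tbr1). Tbx18 (chr9:87731211-87731510, minus strand) and Tbx20 (chr9:24774254-24774553, minus strand) are shown because the EZH2i libraries lay furthest above the Ctr libraries for the first and because the second had no count in Ctr, and Tbr1 (chr2:61804203-61804502, plus strand) because it did not pass the test in any comparison. Capitals mark CpG dinucleotides.
Tbx18: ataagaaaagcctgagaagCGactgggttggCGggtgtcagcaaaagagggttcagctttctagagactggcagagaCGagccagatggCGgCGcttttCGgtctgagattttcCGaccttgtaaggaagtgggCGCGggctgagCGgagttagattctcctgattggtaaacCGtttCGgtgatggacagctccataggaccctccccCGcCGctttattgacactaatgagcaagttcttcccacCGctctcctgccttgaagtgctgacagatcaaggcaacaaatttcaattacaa
Tbx20: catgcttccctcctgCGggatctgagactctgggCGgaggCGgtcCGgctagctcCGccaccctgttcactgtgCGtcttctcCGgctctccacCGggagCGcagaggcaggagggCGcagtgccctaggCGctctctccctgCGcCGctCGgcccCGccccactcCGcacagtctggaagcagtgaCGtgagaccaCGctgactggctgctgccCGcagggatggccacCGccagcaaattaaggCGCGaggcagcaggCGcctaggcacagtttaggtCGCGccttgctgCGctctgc
Tbr1: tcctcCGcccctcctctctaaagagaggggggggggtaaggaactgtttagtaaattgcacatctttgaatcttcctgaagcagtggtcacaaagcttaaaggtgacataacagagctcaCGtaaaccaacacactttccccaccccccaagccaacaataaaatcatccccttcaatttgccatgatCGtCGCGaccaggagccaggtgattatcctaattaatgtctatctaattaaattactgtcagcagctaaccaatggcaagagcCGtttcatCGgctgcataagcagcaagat
The Tbx20 window held 26 CpG, the Tbx18 window 15 and the Tbr1 window 7, where the median of the 32851 RefSeq windows was 7. The first of the 2 Tbx1 windows also held 26 CpG, the second 16 and the Tbx4 window 8. Both genes stayed at a few counts in every group. RefSeq starts need not be the GENCODE gene starts given elsewhere. The Tbr1 window, the Tbx4 window (chr11:85896515-85896814) and the first Tbx1 window lie inside the annotated genes. In GENCODE, Tbr1 starts at 61802930 and Tbx4 at 85886422. At the annotated start, Tbx1 held 16 CpG and Tbx18 15, so CpG content did not order these 2 genes by their level.

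Eomes (chr9:118477939-118478238, plus strand) is shown because it was the member called with IFN-γ both without and with EZH2i in the fit with the replicate number as a block. Capitals mark the match to the core letters of the interferon-stimulated response element, a GAAA, any 2 bases and a second GAAA.
Eomes: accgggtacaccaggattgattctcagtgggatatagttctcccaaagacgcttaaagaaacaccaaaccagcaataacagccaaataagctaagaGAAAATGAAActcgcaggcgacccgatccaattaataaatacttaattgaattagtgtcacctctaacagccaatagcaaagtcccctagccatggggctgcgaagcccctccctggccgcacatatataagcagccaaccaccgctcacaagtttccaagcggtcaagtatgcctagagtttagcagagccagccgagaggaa
Both strands were searched for GGTGTGA, for this response element core and for the gamma-activated site letters TTCNNNGAA, which were found in 3.98%, 3.44% and 8.30% of all RefSeq windows. The match in Eomes was the only one to these 3 motifs among the windows of the 6 members and of Tbx21.

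The T-box genes were near the detection floor in untreated OPCs. A library was taken to be at the floor for a gene with 3 counts or fewer, which corresponds to 0.0455 to 0.169 CPM depending on its depth. In Ctr, 6 of the 10 genes held 3 counts or fewer in every library (Tbx1, Tbx3, Tbx4, Tbx5, Tbx18 and Tbx20), and Tbx1, Tbx5 and Tbx20 had no count at all. The summed level of the 10 genes was 1.47, 1.68 and 2.13 CPM (lowest, median and highest library) in Ctr and 1.85, 1.92 and 4.62 CPM in IFN-γ. In EZH2i the same sum was 9.29, 17.8 and 38.9 CPM, and in IFN-γ + EZH2i 12.7, 22.5 and 34.9 CPM. The 6 libraries with the inhibitor lay above the 6 without it. Because these are bulk libraries, fewer cells of a type and less RNA per cell cannot be told apart.

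**Figure D1:**
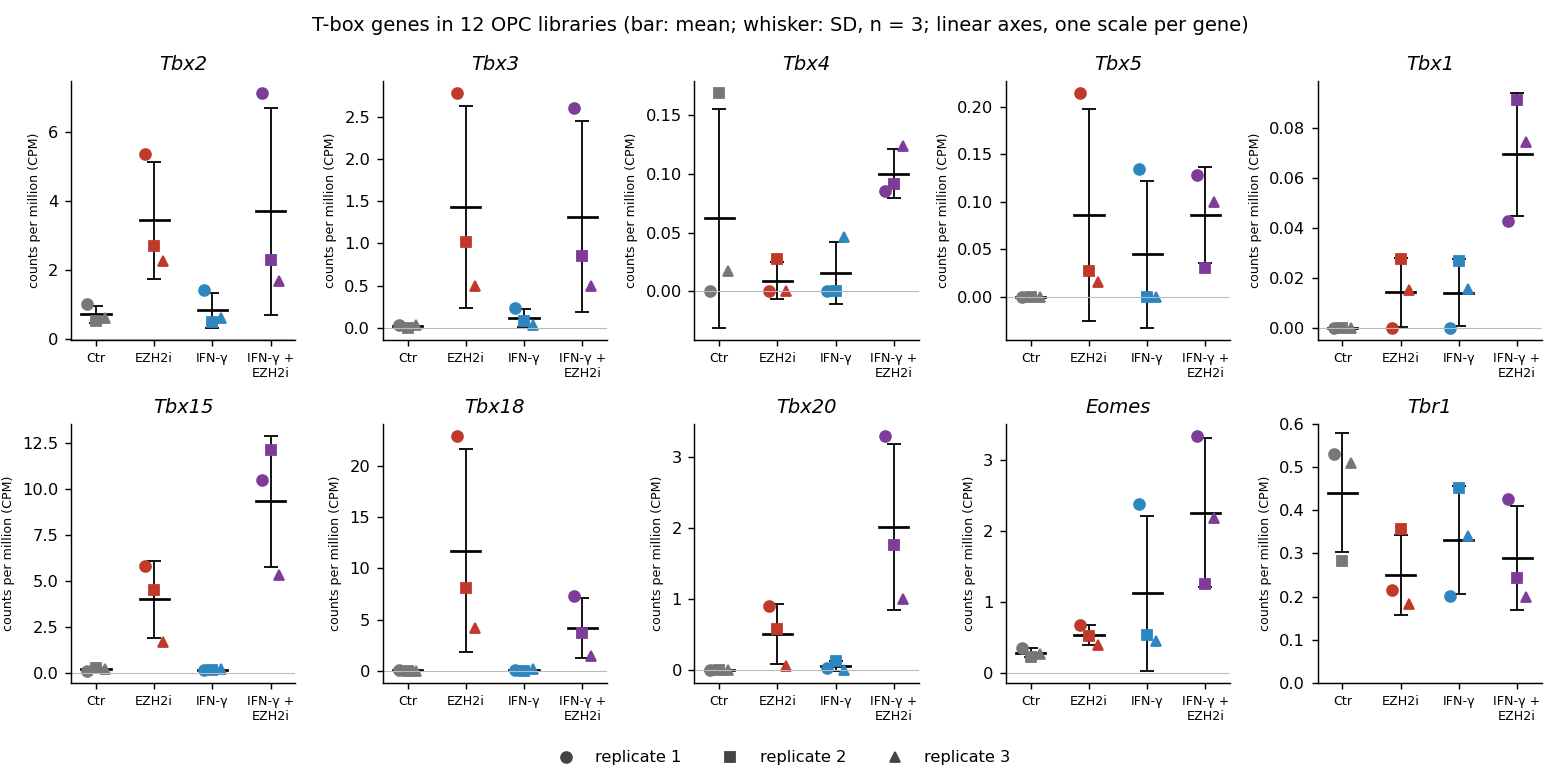
Level of the 10 T-box genes in each of the 12 libraries, in CPM on linear axes with a scale of its own for each gene; points are libraries (shape gives the replicate number), horizontal bars are means and whiskers SD (n = 3). For Tbx2, Tbx3, Tbx15 and Tbx18 the 6 libraries with EZH2i lie above the 6 without it; for Tbx20, EZH2i replicate 3 (0.0607 CPM) lies below IFN-γ replicate 2 (0.133 CPM), while Tbr1 overlaps between all groups and Tbx1, Tbx4 and Tbx5 stay under 0.22 CPM.

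Levels of different genes were compared in TPM, the CPM-like unit that also divides by transcript length. In Ctr, Tbx2 (0.130 ± 0.0249 TPM, SD, n = 3) and Tbr1 (0.116 ± 0.0683) were highest, followed by Eomes (0.0649 ± 0.0115) and Tbx15 (0.0405 ± 0.0217), and each gene overlapped with the next in this order. In EZH2i the order became Tbx18 (2.13 ± 1.79 TPM), Tbx15 (0.968 ± 0.518), Tbx2 (0.810 ± 0.405) and Tbx3 (0.305 ± 0.200), and the libraries of Tbx2 lay above those of Tbx3. With IFN-γ + EZH2i, Tbx15 was first (1.97 ± 0.861 TPM), followed by Tbx18 (0.778 ± 0.651), Tbx2 (0.767 ± 0.643), Eomes (0.498 ± 0.257) and Tbx20 (0.345 ± 0.0937), each of which overlapped with the next. Even in EZH2i these levels remained far under that of Mga, at 32.4 ± 0.360 TPM.

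Of the 10 genes, 7 passed the filter and were tested with edgeR among 18995 genes, with p-values adjusted over all of them. Tbx1, Tbx4 and Tbx5 did not pass. Tbx3, Tbx15, Tbx18 and Tbx20 reached the filter level of about 0.297 CPM in 0 of the 6 libraries without EZH2i and in 6, 6, 6 and 5 of the 6 with it, so they passed the filter through the inhibitor groups alone and a count over the genes tested is a description. Of the 10 genes, 2 (Tbx15 and Tbx18) were called higher in EZH2i than in Ctr, where 0.405% of all genes tested were called higher. The same 2 genes were called higher in IFN-γ + EZH2i than in IFN-γ, where 0.347% of the genes tested were. These comparisons share no library, but both come from 1 fit over 12 libraries with a shared estimate of the spread. Same-numbered libraries were also taken as paired between Ctr and IFN-γ and between EZH2i and IFN-γ + EZH2i. The comparisons are therefore not independent. In the average of both inhibitor effects, which uses 6 libraries against 6, 5 of the 10 were called higher (Tbx2, Tbx3, Tbx15, Tbx18 and Tbx20), against 2.03% of all genes tested. None was called lower in these 3 comparisons by edgeR. For 6 genes (Tbx2, Tbx3, Tbx15, Tbx18, Tbx20 and Eomes) the 3 EZH2i libraries all lay above the 3 Ctr libraries, as they did for 7.37% of genes tested, and for 5 genes (these without Eomes) IFN-γ + EZH2i lay above IFN-γ in the same way, as for 6.08% of genes tested.

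**Figure D2:**
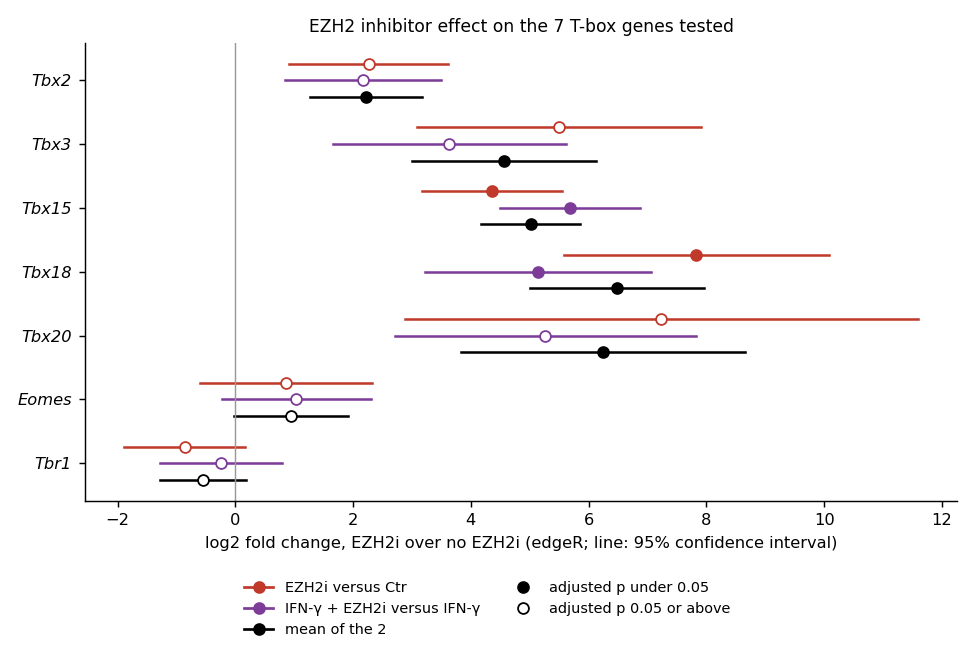
Effect of the EZH2 inhibitor on the 7 T-box genes tested, as log2 fold change from edgeR with its 95% confidence interval, for EZH2i versus Ctr (red), IFN-γ + EZH2i versus IFN-γ (purple) and the mean of both (black). Filled points passed an adjusted p of 0.05; the intervals of Tbx2, Tbx3, Tbx15, Tbx18 and Tbx20 lie above 0 in each comparison and those of Eomes and Tbr1 include 0.

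Tbx18, a factor of the epicardium, sinus node and ureter that is also used as a marker of pericytes, reached the highest level of the 10. It is on the minus strand of chromosome 9 (87702800 to 87731260, GRCm38). It had 3, 0 and 2 counts in Ctr replicates 1 to 3 and 641, 296 and 275 counts in the EZH2i replicates, or 0.106, 0 and 0.0339 CPM against 22.9, 8.11 and 4.17 CPM. The 3 EZH2i libraries stood well above all 6 libraries without the inhibitor, and replicate 1 stood above the others. The ratio of the pooled CPM was 195 (95% exact interval 83.3 to 602, covering counting error only), and edgeR gave a log2 fold change of 7.83 (SE 1.03, adjusted p = 0.00837). The call was lost without Ctr replicate 2 or Ctr replicate 3 (adjusted p up to 0.0788). In EZH2i, 1211.2 of the 1212 pooled counts were assigned to the 8-exon transcript Tbx18-201.

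With IFN-γ present, Tbx18 rose from 0.101, 0.0266 and 0.185 CPM to 7.35, 3.71 and 1.49 CPM, a pooled ratio of 30.3 (18.4 to 53.6) and a log2 fold change of 5.14 (SE 0.88, adjusted p = 0.0382). The groups did not overlap, but this call held in 3 of the 12 fits that left out 1 library, and its adjusted p reached 0.188 without IFN-γ replicate 2. In the fit with a replicate block the adjusted p was 3.18e-04. Averaged over both IFN-γ levels, the log2 fold change was 6.48 (SE 0.68, adjusted p = 5.87e-04) and stayed called whichever of the 12 libraries was left out.

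Tbx15, which shapes skeletal and dermal mesenchyme and belongs to the same subfamily as Tbx18, lies on chromosome 3 (99240381 to 99354259, plus strand). It was measured at 0.106, 0.282 and 0.204 CPM in Ctr and at 5.83, 4.49 and 1.70 CPM in EZH2i, with 20 and 439 pooled counts. No EZH2i library came near the Ctr range. The pooled ratio was 17.7 (11.3 to 29.2) and the log2 fold change 4.35 (SE 0.55, adjusted p = 0.00616), a call lost without Ctr replicate 3 (adjusted p = 0.0574). In IFN-γ it stood at 0.134, 0.186 and 0.201 CPM and in IFN-γ + EZH2i at 10.5, 12.2 and 5.34 CPM. The groups did not overlap, and the log2 fold change was 5.69 (SE 0.55, adjusted p = 0.00171), with adjusted p between 4.17e-04 and 0.0217 over the 12 fits that left out 1 library.

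Tbx20, a regulator of heart development and cardiomyocyte proliferation, was not detected in Ctr (0 counts in each library) and had 25, 21 and 4 counts in EZH2i, or 0.894, 0.575 and 0.0607 CPM. Against a floor of 3 counts over the pooled Ctr libraries its level in EZH2i was at least 13.4-fold higher, although EZH2i replicate 3 lay close to the floor. The log2 fold change of 7.23 depends on the prior count and was not called by edgeR (adjusted p = 0.236). In IFN-γ it held 1, 5 and 0 counts, and in IFN-γ + EZH2i 77, 58 and 40 counts (3.29, 1.76 and 0.994 CPM), which did not overlap. The pooled ratio was 39.9 (18.0 to 110) and the log2 fold change 5.26 (SE 1.14, adjusted p = 0.135).

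Tbx2, a repressor of cell cycle inhibitor genes, was the member with the highest level in Ctr, at 0.993, 0.508 and 0.611 CPM, and it stood at 5.36, 2.69 and 2.25 CPM in EZH2i. The groups did not overlap, and the pooled ratio was 4.36 (3.39 to 5.68), but the log2 fold change of 2.26 (SE 0.62) was not called (adjusted p = 0.213). In IFN-γ it was at 1.41, 0.479 and 0.586 CPM and in IFN-γ + EZH2i at 7.14, 2.28 and 1.66 CPM, a pooled ratio of 4.32 (3.43 to 5.48). Between libraries with the same replicate number the ratio in this comparison was 5.07, 4.75 and 2.84. The average effect was a log2 fold change of 2.22 (SE 0.43, adjusted p = 0.0212). That call was lost when EZH2i replicate 1, Ctr replicate 2, Ctr replicate 3, IFN-γ replicate 2 or IFN-γ replicate 3 was left out (adjusted p up to 0.0659).

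Tbx3, the closest relative of Tbx2 and a repressor in limb, mammary gland and cardiac conduction tissue, had 1, 0 and 2 counts in Ctr and 78, 37 and 33 counts in EZH2i, or up to 0.0355 CPM against 2.79, 1.01 and 0.501 CPM. The groups did not overlap. The pooled ratio of 39.7 had a wide interval (13.3 to 195), and the log2 fold change of 5.50 (SE 1.11) missed the threshold (adjusted p = 0.0648). With IFN-γ the counts were 7, 3 and 2 without and 61, 28 and 20 with the inhibitor, a pooled ratio of 12.4 (6.84 to 24.8). The average effect was called, with a log2 fold change of 4.56 (SE 0.72, adjusted p = 0.00585), whichever of the 12 libraries was left out.

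In IFN-γ and IFN-γ + EZH2i, libraries with the same replicate number deviated together from their group means (correlations of 0.657 to 0.770 over 14681 genes), so the fit with the replicate number as a block applies to this comparison. In it Tbx2 (adjusted p = 0.00109), Tbx3 (6.55e-04) and Tbx20 (0.00281) were called higher with EZH2i beside Tbx15 and Tbx18, against 3.11% of all genes tested. The block was fitted over all 12 libraries. For EZH2i versus Ctr the correlations were 0.607, 0.083 and 0.657 for replicates 1 to 3. Only replicate 2, with the Ctr library of lowest total, missed the limit of 0.1 set for pairing. The block values of that comparison are given only as an alternative setting at the end.

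Tbx2 and Tbx4 are neighbours on chromosome 11, with start sites 53.9 kb apart, and Tbx3 and Tbx5 on chromosome 5, with start sites 162 kb apart. Tbx4 and Tbx5, the limb and heart partners of these pairs, stayed near the floor. Tbx4 had 4, 1, 3 and 10 pooled counts in Ctr, EZH2i, IFN-γ and IFN-γ + EZH2i, and Tbx5 had 0, 8, 4 and 8. For Tbx4 the ratio of EZH2i to Ctr was 0.201 with an interval of 0.00408 to 2.03, so a difference was not detectable at this depth. In IFN-γ + EZH2i its level was 4.56 times that in IFN-γ (1.18 to 25.8) and 13.5 times that in EZH2i (1.92 to 586), ratios that rest on 3 and 1 counts. For Tbx5, the level in EZH2i was at least 2.15-fold higher than the Ctr floor, with 6 of its 8 counts in replicate 1. Tbx1, the pharyngeal arch factor, had 0, 2, 2 and 7 pooled counts in the 4 groups, with 1 to 3 counts in each IFN-γ + EZH2i library.

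In the inhibitor groups the replicates differed severalfold, in a similar way for several members. Replicate 1 was the highest library for 6 of the 7 genes tested in EZH2i (not Tbr1) and for 6 of 7 in IFN-γ + EZH2i (not Tbx15). In EZH2i, the SD was 0.842 times the mean for Tbx18, 0.837 for Tbx3 and 0.824 for Tbx20, compared with 0.268 for Eomes and 0.0763 for Mga. Of the marker sums examined, those of OPCs, oligodendrocytes, neurons, pericytes, fibroblasts and endothelial cells were also highest in EZH2i replicate 1, with 7100 CPM against 6815 and 6700 CPM for OPCs and 35.5 CPM against 19.6 and 25.1 CPM for endothelial cells, while those of astrocytes, microglia and cardiomyocytes were highest in replicate 3. Their part in the spread of the T-box genes was not tested.

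The second axis of the design is IFN-γ. None of the 10 genes was called in IFN-γ versus Ctr by edgeR with the group as the only term, where 8.75% of genes tested were called in either direction and 3612 genes had an unadjusted p under 0.05. DESeq2 called 1 of the 10, Eomes. None was called in IFN-γ + EZH2i versus EZH2i in that edgeR fit, where 8.07% of genes tested were called and 3356 had an unadjusted p under 0.05. Here too DESeq2 called Eomes. In the fit with the replicate block, 1 of the 10 was called in the first comparison (Eomes), against 21.2% of all genes tested, and 4 in the second (Tbx15, Tbx18, Tbx20 and Eomes), against 19.3%. The same-number correlations were 0.118 to 0.676 in the first and 0.650 to 0.700 in the second.

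In inhibitor-treated OPCs, the block fit called Tbx15, Tbx20 and Eomes higher and Tbx18 lower with 6 h of IFN-γ. Tbx18 went from 22.9 to 7.35 CPM in replicate 1, from 8.11 to 3.71 CPM in replicate 2 and from 4.17 to 1.49 CPM in replicate 3, so that 0.321, 0.457 and 0.357 of the level remained. The fall was present in each pair although the groups as a whole overlapped. The log2 fold change was -1.41 in the block fit (adjusted p = 0.00865) and -1.49 without the block (SE 0.67, adjusted p = 0.265).

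Tbx15 went the other way, from 5.83 to 10.5 CPM, from 4.49 to 12.2 CPM and from 1.70 to 5.34 CPM, ratios of 1.80, 2.71 and 3.14. It was higher in 3 of 3 pairs, while the groups overlapped between EZH2i replicate 1 and IFN-γ + EZH2i replicate 3. The log2 fold change was 1.28 with the block (adjusted p = 0.00628) and 1.23 without it (SE 0.43, adjusted p = 0.122). Tbx20 rose 3.68-fold, 3.06-fold and 16.4-fold in the 3 pairs, the last from 4 counts, with a log2 fold change of 2.29 with the block (adjusted p = 0.0121) and 2.04 without it (SE 0.90, adjusted p = 0.271). The 3 libraries of Tbx20 and of Eomes in IFN-γ + EZH2i lay above those in EZH2i, as was the case in either direction for 21.5% of genes tested. Tbx2 and Tbx3 had log2 fold changes of 0.10 (SE 0.57) and -0.12 (SE 0.73), with 95% intervals of -1.14 to 1.34 and -1.72 to 1.48, and the sign for Tbx2 turned to -0.05 with the block.

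**Figure D3:**
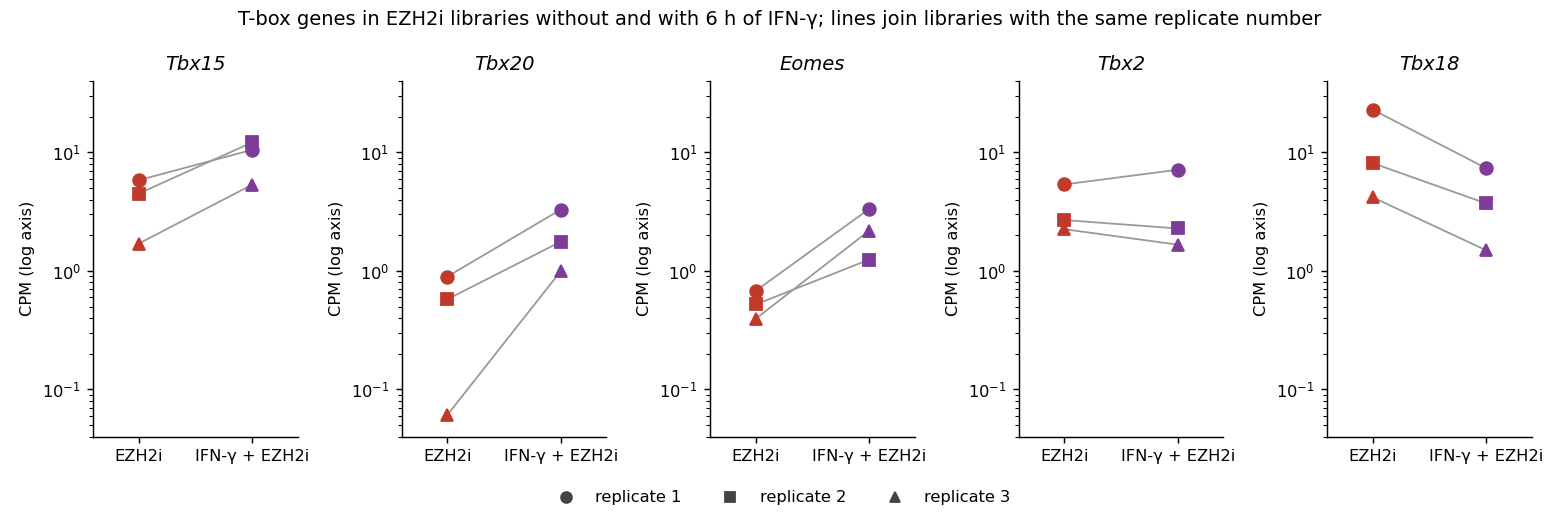
Levels of 5 T-box genes in EZH2i and IFN-γ + EZH2i libraries, in CPM on a shared log axis; lines join libraries with the same replicate number. Each line for Tbx15, Tbx20 and Eomes goes up and each line for Tbx18 goes down, while the lines of Tbx2 differ in direction.

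Without the inhibitor, Tbx15, Tbx18 and Tbx20 were too low for such a comparison, with 20, 5 and 0 pooled counts in Ctr and 24, 16 and 6 in IFN-γ. The interaction term, which compares the inhibitor effect with and without IFN-γ, was called for 0 of 18995 genes (0%) by edgeR, with 127 genes at an unadjusted p under 0.05, and for 0 genes by DESeq2 and by the block fit. For Tbx18 it was -2.69 on the log2 scale with a 95% interval of -5.87 to 0.50, and for Tbx15 it was 1.33 with an interval of -0.33 to 2.99. A different inhibitor effect with IFN-γ was thus not shown for either gene, and the intervals allow one of several-fold.

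Eomes, which marks intermediate progenitors of the cortex and also acts in T and NK cells, lies on chromosome 9 (118478212 to 118486132, plus strand). It was at 0.355, 0.226 and 0.271 CPM in Ctr and at 2.38, 0.533 and 0.447 CPM in IFN-γ. The groups did not overlap, as for 23.0% of all genes tested in either direction, and replicate 1 carried most of the difference. The log2 fold change was 1.92 (SE 0.66, adjusted p = 0.110) without and 1.69 (adjusted p = 0.0195) with the block, and 1.94 (adjusted p = 0.0371) in DESeq2. In EZH2i it was at 0.679, 0.521 and 0.395 CPM and in IFN-γ + EZH2i at 3.33, 1.25 and 2.19 CPM. This gave a log2 fold change of 2.10 (SE 0.61, adjusted p = 0.0586) without and 2.03 (adjusted p = 0.00280) with the block, and IFN-γ + EZH2i lay above EZH2i in 3 of 3 pairs, by 4.91-fold, 2.39-fold and 5.54-fold. The inhibitor effect on Eomes was smaller, with an average log2 fold change of 0.95 (SE 0.44, adjusted p = 0.419).

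The relative of Eomes that is not among the 10, Tbx21 (T-bet, the regulator of T helper 1 and NK cell genes), was a much larger IFN-γ responder. It had 2, 0 and 1 counts in Ctr and 631, 454 and 472 counts in IFN-γ, or up to 0.0709 CPM against 21.1, 12.1 and 7.28 CPM. The pooled ratio was 412 (141 to 1998) and the log2 fold change 8.71 (SE 0.70, adjusted p = 4.02e-06). With the inhibitor it went from 0.250, 0.192 and 0.0607 CPM to 26.3, 18.1 and 17.0 CPM, a log2 fold change of 7.08 (SE 0.57, adjusted p = 3.94e-06), and both calls held whichever of the 12 libraries was left out. Between IFN-γ and IFN-γ + EZH2i its groups overlapped (log2 fold change 0.60, SE 0.39, adjusted p = 0.972), although the block fit called it (0.71, adjusted p = 0.0450).

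**Figure D4:**
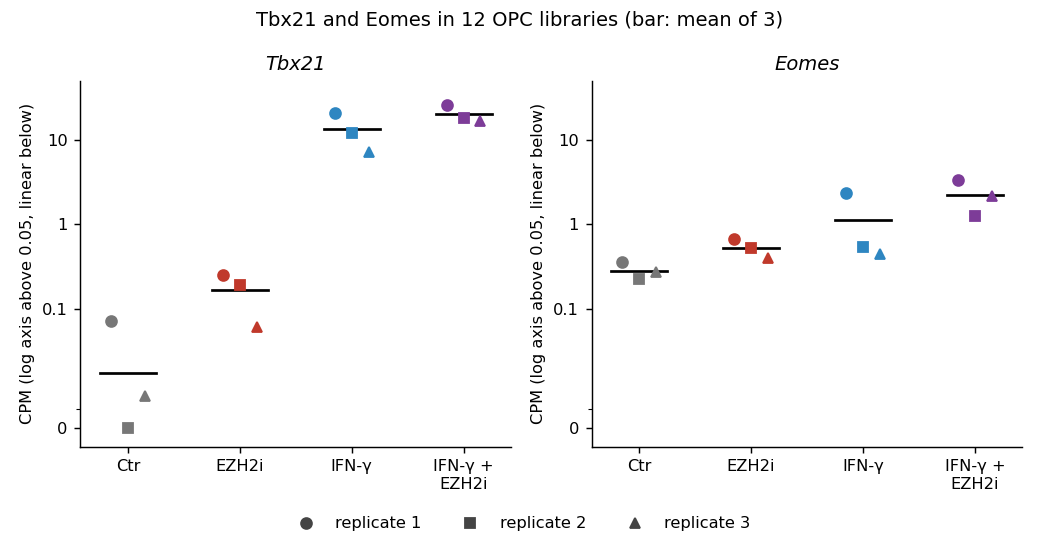
Tbx21 and Eomes in the 12 libraries, in CPM on an axis that is logarithmic above 0.05 CPM and linear below; points are libraries and bars are means of 3. Tbx21 lies between 7.28 and 26.3 CPM in the 6 IFN-γ libraries and at or under 0.250 CPM in the others, and Eomes lies between 0.226 and 3.33 CPM.

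Markers of T and NK cells, a usual source of Tbx21 and Eomes, were near 0. Summed over Cd3e, Cd3g, Cd8a, Ncr1, Nkg7 and Cd2, the libraries held 0 to 0.213 CPM, and none of the 6 passed the filter. Cd3g, Ncr1 and Nkg7 were at 0 in every library. Ifng, a target of both factors, was also at 0 in every group, and Gzmb was at 0 in Ctr, EZH2i and IFN-γ + EZH2i.

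Tbr1, the factor of early-born cortical neurons that follows Eomes in that lineage, lies on chromosome 2 (61802930 to 61814114, plus strand) and was not called in any comparison or alternative. It was at 0.532, 0.282 and 0.509 CPM in Ctr, at 0.214, 0.356 and 0.182 CPM in EZH2i, at 0.201, 0.453 and 0.339 CPM in IFN-γ and at 0.427, 0.243 and 0.199 CPM in IFN-γ + EZH2i. All 4 groups overlapped. Its log2 fold change between EZH2i and Ctr was -0.86 (SE 0.47, 95% interval -1.89 to 0.16, adjusted p = 0.829). Of the other family genes, Mga averaged 162 ± 10.5 CPM (Ctr; SD, n = 3) and 174 ± 13.3 CPM (EZH2i). T, the mesoderm factor Brachyury, and Tbx6 stayed under 0.71 CPM in every library, and Tbx10, Tbx19 and Tbx22 at or under 0.122 CPM.

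Reads of neighbouring genes bear on how local these differences were. In all, 66 genes other than the 10 start within 200 kb of a member's start, and 19 of them passed the filter. Of these 19, 10 lie near Tbx1, 4 near Eomes, 3 near Tbx15, 1 near Tbx18 and 1 near Tbr1. Near Tbx2, Tbx3 and Tbx20, 0 passed, so how local the differences were cannot be seen there. By edgeR, 0 of the 19 were called in EZH2i versus Ctr and 0 in IFN-γ + EZH2i versus IFN-γ. Over all genes tested, 0.405% and 0.347% were called higher, and 1338 and 1220 had an unadjusted p under 0.05. With 19 genes, 0 calls do not set the neighbours apart from other genes. In the average effect and in the block fit of the second comparison 1 was called higher (2.03% and 3.11% of all genes tested), D030062O11Rik. It lies on the opposite strand across the Tbx18 start (87729285 to 87732090) and had 1, 0 and 0 counts in Ctr, 11, 14 and 3 in EZH2i, 0, 1 and 3 in IFN-γ and 16, 11 and 8 in IFN-γ + EZH2i. Its average log2 fold change was 3.96 (SE 0.81, adjusted p = 0.0255). The kit keeps strand, but the strand setting of the counting is not given in the sources used here, so its reads and those of Tbx18 may not be fully separate. Psmd14, the neighbour of Tbr1 with the highest level, stood at 73.7 ± 16.0 CPM (Ctr) and 86.5 ± 15.2 CPM (EZH2i). In IFN-γ versus Ctr 2 of the 19 were called higher, where 8.75% of all genes tested were called in either direction. They were Itga9 (128 kb from the Eomes start) and Gm45897 (112 kb), named after their values were seen. Their log2 fold changes were 1.08 (SE 0.19, adjusted p = 0.00321) and 2.27 (SE 0.57, adjusted p = 0.0282).

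**Figure D5:**
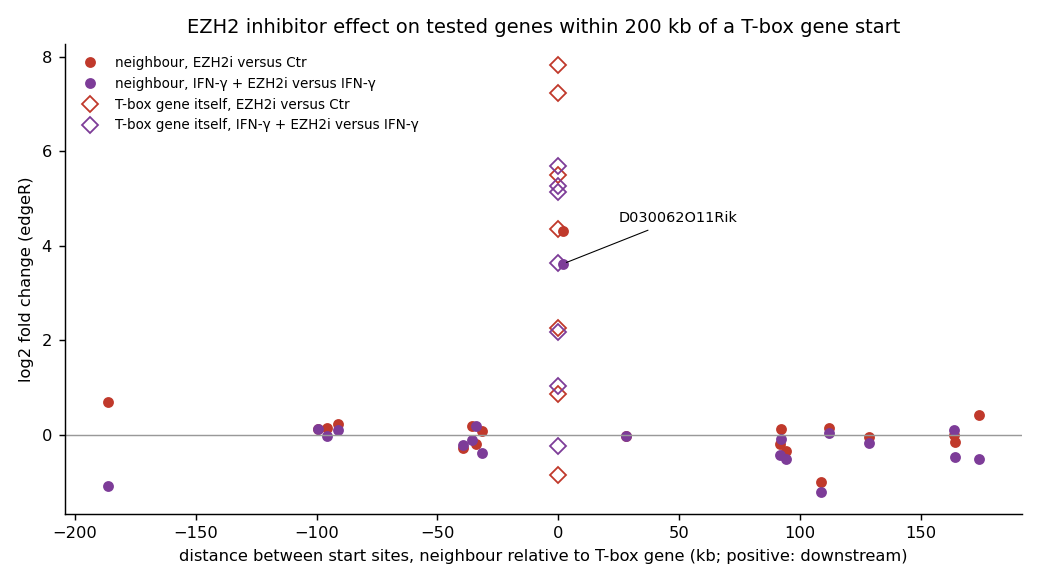
Log2 fold change (edgeR) with EZH2i of the 19 tested genes within 200 kb of a T-box gene, against the distance between start sites in kb; filled points are neighbours and open diamonds at 0 kb the 7 T-box genes themselves, without (red) and with (purple) IFN-γ. The other 18 neighbours lie between -1.23 and 0.69, while D030062O11Rik, which overlaps the Tbx18 start, lies at 4.31 and 3.62.

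Factors that work with T-box proteins in heart and limb development were listed as other genes of the same programmes. Of 12 listed, 8 passed the filter. In each inhibitor comparison 2 were called higher, against 0.405% and 0.347% of all genes tested, and Gata6 was among them in both. Gata6, a GATA factor of endoderm and heart, averaged 0.0118 ± 0.0205 CPM (Ctr) and 2.20 ± 1.76 CPM (EZH2i; log2 fold change 7.38, SE 1.13, adjusted p = 0.0202). In the average effect 6 of the 8 were called higher (2.03% of all genes tested), as were 6 in the block fit of IFN-γ + EZH2i versus IFN-γ (3.11%). Gata4, Nkx2-5, Hand2 and Neurog2 were among them in both. Gata4, Gata6, Nkx2-5 and Hand2 averaged 0.0118 CPM or less in Ctr and 0.176 CPM or less in IFN-γ. They passed the filter through the inhibitor groups, so these counts are a description. Pax6 and Mef2c, which OPCs already expressed at 10.6 and 12.6 CPM, were not called in either inhibitor comparison.

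Known targets of T-box factors were listed as well. Of 14 genes that T-box factors activate, 4 passed the filter. By edgeR 0 of the 4 were called in EZH2i versus Ctr or in IFN-γ + EZH2i versus IFN-γ. In these comparisons 0.405% and 0.347% of all genes tested were called higher, so 0 calls among 4 genes do not set the targets apart. Reln, a target of Tbr1 in cortex, averaged 45.4 ± 10.9 CPM (Ctr) and 90.5 ± 15.4 CPM (EZH2i; log2 fold change 0.99, SE 0.25, adjusted p = 0.166). It was the 1 of the 4 called in the average effect, where 2.03% of all genes tested were called higher. In IFN-γ + EZH2i versus IFN-γ the block fit called it (adjusted p = 0.00435, against 0.418 without the block). The cardiac Tbx5 and Tbx20 target Nppa stayed under the filter. Of 8 genes that Tbx2 or Tbx3 represses, 6 passed, and their median log2 fold change with EZH2i alone was 0.21 against 0.01 over all genes tested. Cdkn2a, the cell cycle inhibitor locus of p16 and p19, averaged 10.2 ± 2.03 CPM (Ctr) and 27.7 ± 10.2 CPM (EZH2i; 1.45, SE 0.31, adjusted p = 0.0816), and rose from 10.0 ± 2.62 CPM in IFN-γ to 33.3 ± 9.58 CPM in IFN-γ + EZH2i (1.74, SE 0.31, adjusted p = 0.0401). In the average effect Cdkn2a was the 1 of the 6 called (log2 fold change 1.59, SE 0.22, adjusted p = 0.00274). Cdkn1a had a log2 fold change of 0.50 (SE 0.35) with EZH2i alone.

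Genes for co-repressors and for PRC2 were expressed throughout. All 9 co-repressor genes and all 12 PRC2 genes passed the filter, and their median log2 fold changes with EZH2i alone were -0.10 and -0.11 against 0.01 over all genes tested. By edgeR, 0 of the 21 were called in either inhibitor comparison. The Ezh2 transcript stood at 49.4 ± 5.21 CPM (Ctr) and 39.6 ± 7.66 CPM (EZH2i) (-0.32, SE 0.16, adjusted p = 0.806). EPZ011989 blocks the enzyme and not its transcript, so this level does not check the treatment.

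Markers of the oligodendrocyte lineage and of other cell types were looked at beside these results. The OPC marker sums of EZH2i lay below those of Ctr, with 0 of 7 genes called. The 6 oligodendrocyte markers summed to 1892 to 2325 CPM in Ctr and 1112 to 1641 CPM in EZH2i, which did not overlap. Each of the 6 had a negative log2 fold change, and Mbp, a myelin protein gene, was called lower in the average effect (-0.93, SE 0.18, adjusted p = 0.0225). The 6 astrocyte markers summed to 810 to 1432 CPM in Ctr and 1112 to 2037 CPM in EZH2i, with overlap. Gfap among them averaged 119 ± 77.5 and 262 ± 131 CPM (log2 fold change 1.13, SE 0.57, adjusted p = 0.796).

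The 9 pericyte and smooth muscle markers, the cells for which Tbx18 serves as a marker, summed to 25.9 to 37.0 CPM in Ctr and 22.2 to 25.4 CPM in EZH2i. None was called in EZH2i versus Ctr. In the average effect Kcnj8 was called higher, 1 of the 5 that passed the filter, against 2.03% of all genes tested. The 6 cardiomyocyte markers summed to 22.4 to 34.4 CPM in Ctr and 26.8 to 44.6 CPM in EZH2i with 0 called, and Myl7 was at 0 in every group. Fibroblast and meningeal markers summed to 2.26 to 5.35 CPM in Ctr and 11.7 to 14.0 CPM in EZH2i, and 1 of 8 (Foxd1, itself a transcription factor gene) was called higher. In the average effect 2 of the 7 that passed the filter were called higher (Foxc1 and Foxd1), against 2.03% of all genes tested. Neuron markers summed to 51.3 to 117 CPM in Ctr and 123 to 200 CPM in EZH2i, which did not overlap, with 0 called. All 9 that passed the filter had a positive log2 fold change. In the average effect 3 of the 9 were called higher (Snap25, Syt1 and Stmn2), against 2.03% of all genes tested. Neurod6, a marker of the Tbr1 lineage, was at 0 in Ctr and EZH2i. Endothelial markers summed to 9.43 to 17.2 CPM and 19.6 to 35.5 CPM in the same groups, with 0 called.

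Between IFN-γ + EZH2i and IFN-γ, Stmn2 was the 1 gene of these lists called without the block. The block fit called 4 oligodendrocyte and 2 OPC markers lower, and 4 neuron, 3 astrocyte, 2 fibroblast and meningeal, 1 endothelial and 1 pericyte marker higher. Over all 18995 genes tested it called 748 in either direction, 591 of them (3.11%) higher. The pericyte marker was Kcnj8, which averaged 0.792 ± 0.283 CPM in IFN-γ and 3.18 ± 1.18 CPM in IFN-γ + EZH2i (adjusted p = 0.00216 with and 0.0503 without the block). The part of these cell types in the T-box levels was not tested.

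The genes whose log2 CPM followed Tbx15, Tbx18 and Tbx2 most closely over the 12 libraries, among 14680 other genes with a mean of at least 1 CPM, were also mostly transcription factor genes. For Tbx15 they were Tfap2b (Pearson's r = 0.979), Igf2bp3 (0.974) and Hoxd8 (0.972), for Tbx18 Tal1 (0.980), Barx1 (0.971) and Vax2 (0.964), and for Tbx2 Irx2 (0.975), En1 (0.973) and Ebf1 (0.972). The points share libraries and treatment groups, and these values are a description. Vax2, for example, had means of 0.135, 6.92, 0.0546 and 6.46 CPM in Ctr, EZH2i, IFN-γ and IFN-γ + EZH2i, while Tbx18 had 0.0468, 11.7, 0.104 and 4.18 CPM.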

How the data were processed

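Strand-specific total RNA libraries from 12 OPC cultures (4 groups of 3) were trimmed, aligned with STAR 2.7 and quantified with Salmon 0.8.2 by the authors. The deposited files give an estimated count and a TPM per transcript. Whether Salmon was run with the strand setting is not given in the sources used here. The authors' DESeq2 tables of log2 fold changes and p-values were not used. All 141862 transcript identifiers were found in GENCODE M21 (GRCm38) and values were summed to 55536 genes, and counts were rounded. Library totals (17403893 to 66546052) limit the precision of low genes, and intervals and floors cover counting error only.

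edgeR 4.0.16 in R 4.3.3 (TMM, filterByExpr leaving 18995 genes, quasi-likelihood test, 1 fit over 12 libraries with the group as term, Benjamini-Hochberg adjustment over all genes, threshold 0.05) was the test; DESeq2 1.42.0 and other settings were alternatives. The test was checked on simulated data with independent libraries and changes only in genes above the floor. That check does not bear on members near the floor or on libraries taken as paired. A count was called near the floor at 3 or fewer. Fold ratios of pooled CPM carry 95% exact intervals. p-values of the fits with the group as the only term measure the spread between cultures of a group, which came from different litters. Those of the block fit measure the spread that remains after the replicate number is taken out. Same-numbered libraries of a pair of groups were taken as paired where each correlation of their deviations from the group means was over 0.1. This held for Ctr and IFN-γ, EZH2i and IFN-γ + EZH2i, IFN-γ and IFN-γ + EZH2i, and EZH2i and IFN-γ. It failed in replicate 2 alone for Ctr and EZH2i and for Ctr and IFN-γ + EZH2i. Whether same-numbered libraries share a litter is not stated. No 2 libraries of the same group agreed within sampling noise; pairs across groups were not compared. Named genes were the members and other T-box genes, genes of the lists, neighbours within 200 kb called with EZH2i or else the one with the highest CPM, and, for the 3 members with the highest mean TPM, the 3 genes with the highest Pearson correlation. The members and lists were chosen with earlier results of these data known. Some genes of the lists are not reported here.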

Additional observations from a re-analysis of the deposited data

How the results depend on the processing

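For EZH2i versus Ctr the number of genes called (77) was 297 with DESeq2, 353 with DESeq2 on 6 libraries, 121 without a filter, 771 with the replicate block, 49 with length-scaled TPM and 33 with edgeR on 6 libraries, and T-box genes called numbered 5 with DESeq2 on 12 or 6 libraries and 5 with the block. For IFN-γ + EZH2i versus IFN-γ (67 genes) the counts were 259, 195, 748 (block), 34 (length-scaled TPM) and 7 (edgeR on 6 libraries), with 5 T-box genes by DESeq2 and by the block and 1 by edgeR on 6 libraries. For the average effect (422) they were 839 with DESeq2, 2317 with the block, 281 with length-scaled TPM, and 238 higher and 4 lower (against 386 and 36) past a log2 change of 1. For IFN-γ versus Ctr (1663) the count was 4032 with the block, and genes called lower numbered 162 (against 399) past a log2 change of 1, with 1 T-box gene by DESeq2 and 1 by the block. For IFN-γ + EZH2i versus EZH2i (1533) it was 3661 with the block, and 175 were lower (against 413) past a log2 change of 1, with 4 T-box genes by the block and 1 by DESeq2 (12 or 6 libraries), without a filter and by edgeR on 6 libraries. Of the 10 genes, 5 had a higher mean in IFN-γ + EZH2i than in EZH2i by TPM and 8 by CPM. In EZH2i versus Ctr, which missed the pairing limit in replicate 2 alone, the replicate block added 3 genes to Tbx15 and Tbx18. They were Tbx2 (adjusted p = 7.92e-04), Tbx3 (2.15e-04) and Tbx20 (0.0239). In the average effect the block added Eomes (0.0387). The cause was not tested.

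Leaving out 1 library gave 11 to 83 genes and 0 to 3 T-box genes for EZH2i versus Ctr, 10 to 65 and 1 to 2 for IFN-γ + EZH2i versus IFN-γ, 245 to 415 and 4 to 6 for the average, 1111 to 1710 and 0 to 1 for IFN-γ versus Ctr, 1078 to 1566 and 0 to 1 for IFN-γ + EZH2i versus EZH2i, and 0 to 0 for the interaction. Signs turned for log2 fold changes that were not called. Over the 12 fits that left out 1 library, Tbr1 in IFN-γ + EZH2i versus IFN-γ ranged from -0.60 to 0.018, and in IFN-γ versus Ctr Tbx2 ranged from -0.40 to 0.50 and Tbx15 from -0.37 to 0.094. In IFN-γ + EZH2i versus EZH2i, Tbx2 ranged from -0.81 to 0.57 and was -0.047 with the replicate block, Tbx3 ranged from -1.08 to 0.79 and Tbr1 from -0.18 to 0.52. The interaction ranged from -0.98 to 0.50 for Tbx2 and from -0.22 to 1.34 for Eomes. Low counts limit Tbx1, Tbx3, Tbx4, Tbx5, Tbx18 and Tbx20 in Ctr, each with 5 or fewer pooled counts.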
